A study of Mus musculus with 20 samples.

Results

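Nr1d1, Nr1d2, Rora, Bhlhe40 and Bhlhe41 encode the REV-ERB, ROR and DEC arms of the circadian clock, and their transcripts were followed across 4 groups of mouse gastrocnemius, a calf muscle of mostly fast fibres. The 5 genes were taken by name from a table of 53311 rows of read counts, and all 5 were among the 13560 genes with enough counts to be tested. Total RNA had been sequenced from 20 samples, 5 in each group. All 20 samples, the controls included, carried the same genotype, Cre+:iMSBmal1 fl/fl, in which Bmal1 (gene symbol Arntl) is flanked by loxP sites. Vehicle samples were treated with vehicle, and the samples labelled iMSBmal1KO were those meant to have lost Bmal1. Genotype contrasts below compare these labels, so loss of Bmal1 and the treatment meant to cause it cannot be told apart. Within each treatment, 1 group had not exercised (at rest) and 1 was taken 1 h after 30 min on a treadmill. All 20 samples carry the time label ZT13 (zeitgeber time). The promoter behind Cre, the inducing agent, the age and sex of the mice, and whether each sample is 1 animal are not given in the labels. The exercised knockout samples are called trained in 1 label field and acutely exercised in the others.

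REV-ERBα (Nr1d1) and REV-ERBβ (Nr1d2) are heme-binding nuclear receptors that sit on ROR elements and repress transcription through the NCOR and HDAC3 corepressor. RORα (Rora) activates from the same elements, which lie in Arntl, Clock, Npas2, Nfil3 and Cry1. BMAL1 and CLOCK bind E-boxes and drive transcription of both REV-ERB genes and of Bhlhe40 and Bhlhe41, whose products DEC1 and DEC2 bind E-boxes in turn and repress BMAL1 and CLOCK. In skeletal muscle, REV-ERBα is known for its effect on mitochondrial content and autophagy.

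The stretch just upstream of the annotated start is shown for the members that hold a short motif searched for there. The motifs were an E-box, an E-box variant and a half-site of ROR elements. Letters alone do not show that a protein binds. RefSeq windows (build GRCm38.p6) were matched for 4 of the 5 members, not for Bhlhe40, and each window covers the 250 bases before the start. Capitals mark the motif, and position -1 is the base before the start.
Nr1d1, chr11:98775378-98775627, minus strand, 5′ to 3′: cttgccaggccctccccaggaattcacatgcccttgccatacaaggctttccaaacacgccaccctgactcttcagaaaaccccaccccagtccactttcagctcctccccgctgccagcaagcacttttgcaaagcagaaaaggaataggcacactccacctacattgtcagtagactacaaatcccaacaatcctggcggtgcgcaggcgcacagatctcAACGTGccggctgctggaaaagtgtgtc
Nr1d2, chr14:18239107-18239356, minus strand, 5′ to 3′: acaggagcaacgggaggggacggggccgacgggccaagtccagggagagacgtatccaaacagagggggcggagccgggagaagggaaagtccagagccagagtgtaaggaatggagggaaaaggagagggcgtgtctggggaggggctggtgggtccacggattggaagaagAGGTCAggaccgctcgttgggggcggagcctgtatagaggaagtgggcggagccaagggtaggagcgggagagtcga
Bhlhe41, chr6:145865421-145865670, minus strand, 5′ to 3′: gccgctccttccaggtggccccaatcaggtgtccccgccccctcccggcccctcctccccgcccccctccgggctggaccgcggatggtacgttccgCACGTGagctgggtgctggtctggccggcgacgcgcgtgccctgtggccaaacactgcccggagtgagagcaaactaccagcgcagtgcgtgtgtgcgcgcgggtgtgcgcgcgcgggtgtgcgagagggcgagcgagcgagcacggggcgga
Bhlhe41 held an E-box (CACGTG, its own reverse complement) starting at position -153, a motif found in 6.02% of 32851 windows of this length. Nr1d2 held the ROR half-site AGGTCA starting at position -77, a motif found on either strand in 14.02% of windows. Only this half-site was searched for, so a full ROR element in Nr1d2 was not shown. Nr1d1 held an E-box variant (CACGTT, read here from the other strand as AACGTG) starting at position -28, which was found on either strand in 3.85% of windows. That variant was added to the search after the sequences were seen. The Rora window, chr9:68653536-68653785 on the plus strand, held none of the 3 motifs. No E-box was found in the Nr1d1, Nr1d2 or Rora windows, which says only that these letters are not in these 250 bases.

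Total counts ran from 8045154 to 11269812 per sample, and levels are given as counts per 1000000 after TMM scaling (CPM). Muscle markers (Acta1, Ckm, Mylpf, Myh4) summed to between 76480 and 160800 CPM, and none of these defining genes was at 0 in any sample. The targeted gene Arntl averaged 12.3 ± 2.39 CPM in resting vehicle muscle and 14.5 ± 1.94 CPM in resting knockout-labelled muscle (SD, n = 5 each). In exercised muscle its means were 14.3 ± 5.71 CPM (vehicle) and 16.4 ± 4.15 CPM (knockout-labelled). Averaged over both states, the Arntl difference was 0.22 on the log2 scale (SE 0.16, edgeR adjusted p = 0.446). The knockout-labelled samples therefore did not have less Arntl RNA, and the genotype directions given here rest on the labels. The Arntl count covers all exons, and which exon is floxed is not given, so it does not show whether that exon was lost.

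Across genotypes, Nr1d2 was lower in every knockout-labelled sample than in every vehicle sample. Its paralog Nr1d1 overlapped between vehicle and knockout-labelled samples and was not called in either state. Averaged over rest and exercise, 4 of the 5 genes fell in knockout-labelled muscle: Nr1d2 by 2.89-fold, Bhlhe40 by 1.82-fold, Rora by 1.36-fold and Bhlhe41 by 1.28-fold. Among all genes tested, 5.78% were called lower in the same contrast and 11.0% in either direction. At rest, 3 members were called lower (Nr1d2, Bhlhe40, Bhlhe41), beside 2.06% of all genes lower and 3.86% in either direction. After exercise, 2 were called lower (Nr1d2, Rora), beside 3.75% of all genes lower and 6.42% in either direction. No member was called higher in any contrast. Unless another test is named, p-values come from edgeR's quasi-likelihood test. Adjusted edgeR values use the Benjamini-Hochberg method over all 13560 genes, at a threshold of 0.05. All p-values measure only the spread between these samples. In bulk muscle, fewer cells of a type and less RNA per cell cannot be told apart.

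**Figure D1:**
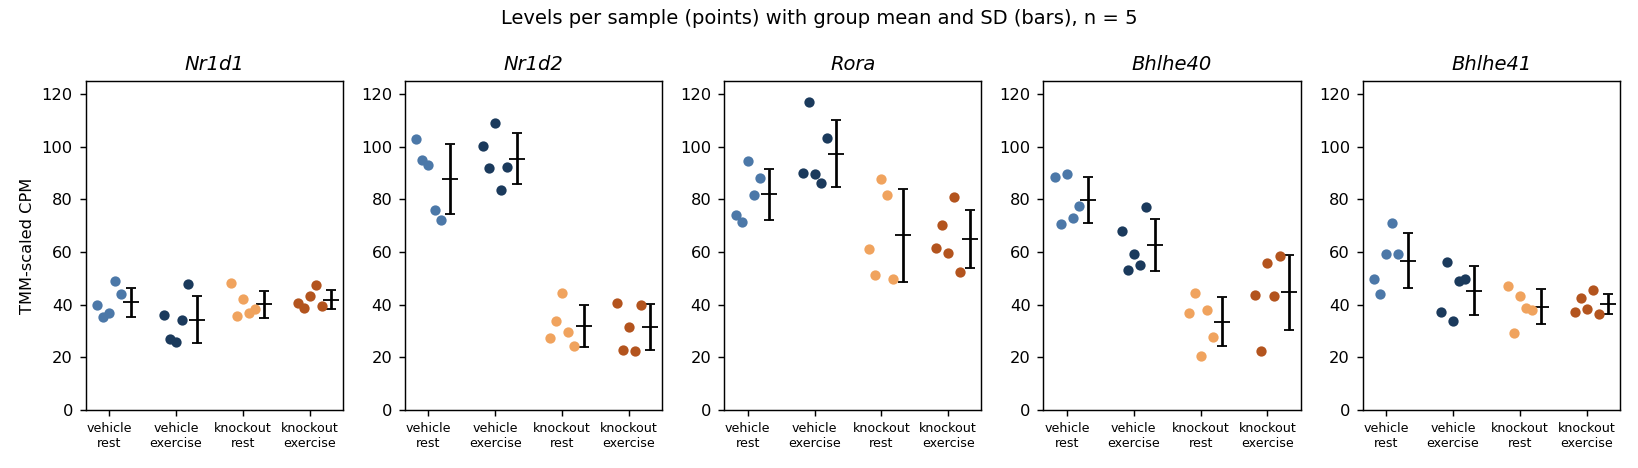
Level of each gene (TMM-scaled CPM, linear axis from 0) in each of the 20 samples by group, with the group mean and SD (n = 5) as bars. All 10 knockout-labelled samples lie at or below 44.4 CPM for Nr1d2, and all 10 vehicle samples at or above 72.1 CPM, whereas the Nr1d1 groups overlap.

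Nr1d1, the REV-ERBα gene, stood at 39.9, 35.3, 36.8, 48.8 and 43.9 CPM in the 5 resting vehicle samples. In resting knockout-labelled muscle the 5 values were 48.1, 35.5, 41.95, 36.7 and 38.3 CPM. The ranges lay almost on top of each other, and the group means were 40.9 ± 5.50 and 40.1 ± 5.09 CPM. The fitted difference at rest was -0.03 on the log2 scale (95% interval -0.31 to 0.25, edgeR adjusted p = 0.956). After exercise, Nr1d1 stood at 36.0, 27.1, 25.6, 34.3 and 48.0 CPM in the vehicle samples. Its values in exercised knockout-labelled samples were 40.6, 38.8, 43.1, 47.5 and 39.4 CPM. Here 4 of the 5 exercised vehicle samples lay below all knockout-labelled samples and replicate 5 above them. The difference was 0.29 (95% interval 0.01 to 0.57, edgeR adjusted p = 0.239). Without that replicate it was 0.44 and passed the threshold (edgeR adjusted p = 0.0297).

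Nr1d2, the REV-ERBβ gene, stood at 103.1, 94.96, 93.2, 75.8 and 72.1 CPM in resting vehicle muscle. The resting knockout-labelled samples held 27.2, 33.8, 44.4, 29.55 and 24.3 CPM. The groups did not overlap, and their means were 87.8 ± 13.3 and 31.85 ± 7.83 CPM. After exercise, vehicle samples held 100.4, 91.8, 109, 83.6 and 92.5 CPM. The exercised knockout-labelled samples held 40.7, 22.9, 31.5, 22.4 and 39.85 CPM. The lowest vehicle sample of either state was thus above the highest knockout-labelled one, which was the case in this direction for 1 of the 5 members and for 0.855% of all genes. At rest Nr1d2 changed by -1.46 on the log2 scale (SE 0.17, edgeR adjusted p = 1.65e-05). In exercised muscle the change was -1.60 (SE 0.17, edgeR adjusted p = 4.49e-06). Averaged over both states, the log2 change was -1.53 (SE 0.12, edgeR adjusted p = 2.05e-08).

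Rora, whose product opposes the REV-ERBs on shared elements, stood at 74.0, 71.4, 94.5, 81.8 and 87.9 CPM in resting vehicle muscle. At rest, knockout-labelled samples held 61.3, 51.1, 87.8, 81.5 and 49.6 CPM. These ranges overlapped, with 3 knockout-labelled samples below all vehicle samples, and the log2 difference of -0.31 did not pass the threshold (SE 0.15, edgeR adjusted p = 0.348). After exercise, vehicle samples held 90.2, 116.9, 89.7, 86.4 and 103.5 CPM. Their knockout-labelled counterparts held 61.6, 70.2, 59.5, 80.98 and 52.3 CPM. After exercise, then, the groups did not overlap, as for Nr1d2 (2 of 5 members; 3.59% of all genes did not overlap in this direction), and Rora was lower by a log2 change of -0.59 (SE 0.15, edgeR adjusted p = 0.0183). That call was lost without vehicle exercise replicate 2, the highest sample (-0.51, edgeR adjusted p = 0.0578). Averaged over both states, the log2 change was -0.45 (SE 0.10, edgeR adjusted p = 0.00636).

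Rorb, the gene of another ROR, had 0 to 4 counts per sample and was not tested.

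Bhlhe40, the DEC1 gene, stood at 88.5, 70.8, 89.6, 72.8 and 77.5 CPM in resting vehicle muscle. The 5 resting knockout-labelled samples held 36.8, 44.5, 20.5, 38.0 and 27.8 CPM. All of them lay below all vehicle samples (2 of 5 members at rest, with Nr1d2; 2.99% of all genes). The log2 change at rest was -1.25 (SE 0.22, edgeR adjusted p = 0.00138). After exercise, vehicle samples held 68.0, 53.3, 59.1, 55.1 and 77.0 CPM. Exercised knockout-labelled samples held 43.6, 22.45, 55.9, 43.2 and 58.4 CPM. The highest 2 knockout-labelled values reached into the vehicle range, and the log2 difference of -0.48 did not pass the threshold (SE 0.21, edgeR adjusted p = 0.213). Averaged over both states, Bhlhe40 fell by 0.87 on the log2 scale (SE 0.15, edgeR adjusted p = 0.000623).

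Bhlhe41, the DEC2 gene, stood at 49.8, 44.0, 59.35, 71.1 and 59.4 CPM in resting vehicle muscle. At rest, knockout-labelled samples held 46.9, 29.1, 43.4, 38.8 and 37.9 CPM. Only the highest knockout-labelled sample, replicate 1, reached into the vehicle range. The log2 change at rest was -0.53 (SE 0.14, edgeR adjusted p = 0.0358). The call at rest was lost in 6 of the 10 fits that leave out 1 resting sample, and the adjusted p reached 0.129 when vehicle rest replicate 4 was left out. After exercise, vehicle samples held 37.3, 56.2, 33.9, 49.0 and 49.8 CPM. Exercised knockout-labelled samples held 37.3, 42.5, 38.4, 45.6 and 36.6 CPM, all inside the vehicle range, and the log2 difference was -0.18 (edgeR adjusted p = 0.550). Averaged over both states, the log2 change was -0.35 (SE 0.10, edgeR adjusted p = 0.0246), and it was lost without vehicle rest replicate 4 (-0.31, edgeR adjusted p = 0.0540).

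**Figure D2:**
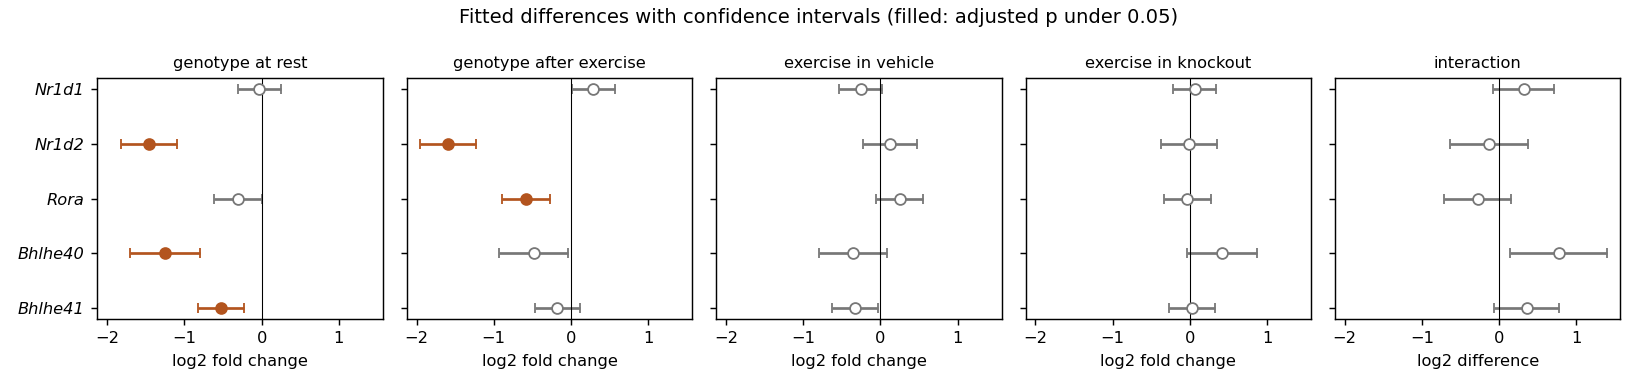
Fitted log2 differences of the 5 genes in 5 contrasts, with 95% intervals; filled points have an edgeR adjusted p under 0.05. Filled points appear only in the genotype panels (Nr1d2 in both, Bhlhe40 and Bhlhe41 at rest, Rora after exercise) and all lie below 0, with Nr1d2 at -1.46 and -1.60.

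Acute exercise changed none of the 5 genes past the threshold in either genotype. In vehicle muscle, 0 of 5 members were called by edgeR, DESeq2 or limma-voom, against 0.804% of all genes by edgeR. In that contrast 1 member, Bhlhe41, had an unadjusted edgeR p under 0.05, as did 8.92% of all genes. The Bhlhe41 log2 difference was -0.33 (edgeR adjusted p = 0.471). The other differences in vehicle muscle were 0.12 for Nr1d2, 0.25 for Rora, -0.26 for Nr1d1 and -0.35 for Bhlhe40. In knockout-labelled muscle, 0 of 5 members and 0 of all 13560 genes (0%) were called by edgeR, and 639 genes and no member had an unadjusted p under 0.05. DESeq2 and limma-voom also called 0 genes there. The largest member difference was that of Bhlhe40, 0.42 (SE 0.22, edgeR adjusted p = 0.99955).

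Whether the exercise difference itself depended on genotype was tested by the interaction. Bhlhe40 had the largest value among the members, 0.77 (95% interval 0.14 to 1.40, edgeR adjusted p = 0.792). Its adjusted p ran from 0.495 to 0.931 over the alternatives, so the smaller genotype difference after exercise was not shown to differ from that at rest. For Rora the interaction was -0.28 (edgeR adjusted p = 0.937) and for Bhlhe41 it was 0.36 (edgeR adjusted p = 0.887). A call in 1 state and not in the other therefore does not show that either gene responded differently. edgeR called 0 of 13560 genes (0%) for the interaction, with 791 at an unadjusted p under 0.05. DESeq2 called 3, none of them a member and 1 of them among the 5 clock genes with ROR elements.

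Per kilobase of exon, the order of the 5 genes differed between the groups. In resting vehicle muscle, Bhlhe40 (17.0 CPM per kb, range 15.0 to 19.1) and Nr1d2 (16.2, range 13.3 to 19.1) were highest, followed by Nr1d1 (13.3, range 11.5 to 15.9). These neighbours overlapped in their ranges. Bhlhe41 (8.44 CPM per kb) and Rora (6.27 CPM per kb) were lowest, and their ranges of 6.55 to 10.6 and 5.46 to 7.23 also overlapped. In resting knockout-labelled muscle, Nr1d1 was highest at 13.04 CPM per kb. Below it came Bhlhe40 at 7.12, Nr1d2 at 5.89, Bhlhe41 at 5.835 and Rora at 5.07 CPM per kb, a group in which each overlapped its neighbour and all lay below Nr1d1 in range. In exercised vehicle muscle the order was Nr1d2 (17.65 CPM per kb), Bhlhe40 (13.3), Nr1d1 (11.1), Rora (7.445) and Bhlhe41 (6.73), and each range overlapped the next. In exercised knockout-labelled muscle Nr1d1 (13.6 CPM per kb) again lay above the other 4, Bhlhe40 (9.51), Bhlhe41 (5.965), Nr1d2 (5.82) and Rora (4.965), whose neighbouring ranges overlapped.

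The ratio of paralogs within a library does not depend on scaling, and these ratios were tested after the values had been seen. Resting vehicle libraries held 2.20 ± 0.555 Nr1d2 counts per Nr1d1 count, and resting knockout-labelled libraries 0.803 ± 0.207. After exercise the means were 2.96 ± 0.899 and 0.761 ± 0.242. On group means, the balance of the REV-ERB pair thus moved from more Nr1d2 counts to fewer. The log2 difference was -1.45 at rest and -1.97 after exercise. The highest knockout-labelled libraries still held slightly more Nr1d2 than Nr1d1 counts, with ratios of 1.06 at rest and 1.01 after exercise. These ratios are not corrected for exon length, 5.41 kb for Nr1d2 and 3.08 kb for Nr1d1. A count ratio of 1 therefore does not mean equal transcript levels. In both states the exact two-sided permutation p was 0.00794, the smallest that 252 relabellings can give, and 0.0159 after adjustment over 6 ratio tests. The Bhlhe40 to Bhlhe41 ratio was 1.445 ± 0.291 in resting vehicle and 0.8995 ± 0.396 in resting knockout-labelled libraries (log2 difference -0.77, exact permutation p = 0.0397, adjusted 0.0476). That difference lost its call in 8 of the 10 fits without 1 sample, and after exercise it was -0.39 (exact permutation p = 0.286).

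**Figure D3:**
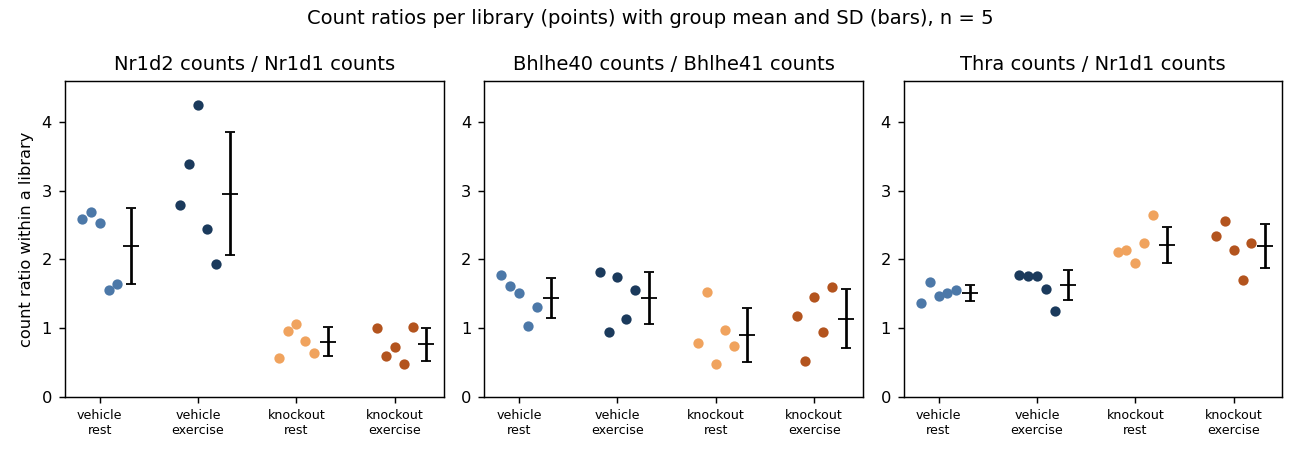
Count ratios within each of the 20 libraries, by group, with group mean and SD (n = 5), on a linear axis from 0. For Nr1d2 over Nr1d1, the vehicle libraries lie above all knockout-labelled ones (means 2.20 and 2.96 against 0.803 and 0.761), for Bhlhe40 over Bhlhe41 the groups overlap, and for Thra over Nr1d1 the resting groups are apart.

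Some members share exon sequence with a neighbour on the opposite strand, and whether counting used strand is not given in the sources used here. Nr1d1 overlaps Thra, the thyroid hormone receptor α gene, over 263 bases (8.55% of its exon length). Thra averaged 61.9 ± 8.70 CPM in resting vehicle and 88.6 ± 12.0 CPM in resting knockout-labelled muscle, a rise of 0.52 on the log2 scale (SE 0.11, edgeR adjusted p = 0.00724). Between the exercised groups Thra rose by 0.75 (edgeR adjusted p = 1.44e-04). The Thra to Nr1d1 count ratio was higher in knockout-labelled libraries by 0.55 on the log2 scale at rest (exact permutation p = 0.00794, adjusted 0.0159). After exercise it was higher by 0.43 (exact permutation p = 0.03175, adjusted 0.0476), a call lost without knockout exercise replicate 1 or 2 (exact permutation p = 0.0556 in each case). Bhlhe40 overlaps 0610040F04Rik over 118 bases (2.51% of its exon length). That neighbour, at 21 to 100 counts per sample, had a log2 change of -1.27 at rest (edgeR adjusted p = 0.00216). Bhlhe41 overlaps Gm43909 over 1280 bases (19.05% of its exon length), and Gm43909, at 93 to 221 counts per sample, had a log2 change of -0.54 at rest (edgeR adjusted p = 0.0457). Reads of these pairs cannot be told apart where they overlap. Rora overlaps Gm15511 over 82 bases (0.627% of its exon length).

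The genes on which REV-ERB and ROR proteins act were read from the same contrasts. Of 5 clock genes with ROR elements, 4 rose in resting knockout-labelled muscle and none fell, with a median log2 difference of 1.34 beside 0.00871 for all genes, of which 1.80% were called higher. Clock, the partner of BMAL1, rose by 1.34 at rest (edgeR adjusted p = 3.98e-07) and 1.35 after exercise. Nfil3, a repressor of D-box genes, rose by 1.37 at rest, and its difference after exercise was 0.12 (edgeR adjusted p = 0.758). Nfil3 also rose with exercise in vehicle muscle, by 1.72. In knockout-labelled muscle its exercise difference was 0.47 (edgeR adjusted p = 0.99955), and its interaction of -1.25 did not pass the threshold (edgeR adjusted p = 0.275). Cry1, a repressor of BMAL1 and CLOCK, rose by 0.52 at rest (edgeR adjusted p = 0.00224) and 0.49 after exercise (edgeR adjusted p = 0.00307). Npas2, a stand-in for CLOCK, had 0 to 3 counts in resting vehicle samples and 25 to 34 in resting knockout-labelled ones. The fifth gene is Arntl itself. Between the exercised groups, 3 of the 5 were called higher in knockout-labelled muscle. The median was 0.494 beside 0.0145 for all genes, of which 2.67% were called higher.

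Of 9 clock genes driven through E-boxes, 8 fell in knockout-labelled muscle at rest and 8 after exercise, with medians of -1.16 and -0.927 beside 0.00871 and 0.0145 for all genes, of which 2.06% and 3.75% were called lower. Dbp, an activator of D-box genes, had the largest fall (-2.66 at rest, -2.39 after exercise), followed by Ciart, a repressor of BMAL1 and CLOCK (-2.33 and -2.13). Hlf (-1.79 and -0.93) and Tef (-1.16 and -1.02) are D-box activators related to Dbp. The period repressors Per2 (-1.11 and -0.91) and Per3 (-1.41 and -0.84), Cry2 (-0.66 and -0.83) and the deubiquitinase Usp2 (-0.67 and -1.16) were also called in both states. Per1, the ninth gene, was called by edgeR only when states were averaged (-0.80, edgeR adjusted p = 0.0171). All 9 were called lower there, with a median of -1.09 beside 0.00986 for all genes, of which 5.78% were called lower. In single states, limma-voom called all 9 at rest and DESeq2 called all 9 after exercise. Nr1d2, at -1.46 and -1.60, lay within the span of these 9 genes, whereas Nr1d1, at -0.03 and 0.29, lay above all of them. The difference of Nr1d1 from these 9 genes was not tested, and that from Nr1d2 was tested only as the count ratio. All samples carry 1 time label, ZT13, so whether Nr1d1 or any other clock gene differed by genotype at other times was not tested. Exercise averaged over genotypes raised 3 of the 9, Per1, Ciart and Usp2, and 0.634% of all genes were called in that contrast, none of them a member. The Per1 call was lost in 12 of its 29 alternatives (highest edgeR adjusted p 0.0703), and the Ciart call in 9, where the highest adjusted p was 0.0804 under limma-voom.

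**Figure D4:**
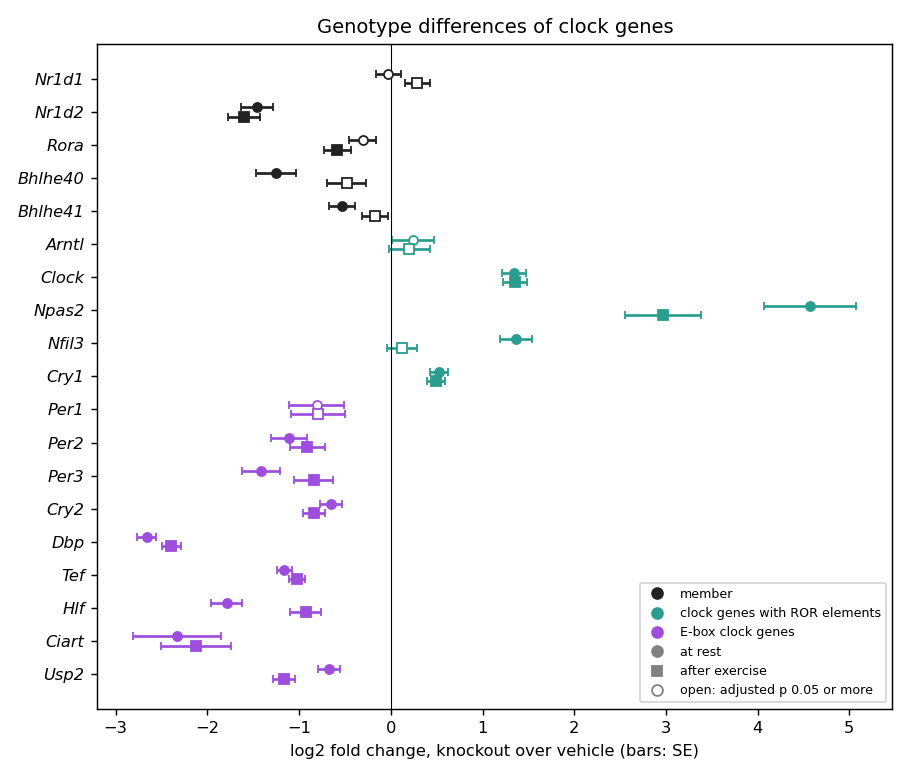
Log2 fold change of knockout-labelled over vehicle muscle at rest (circles) and after exercise (squares), with SE bars, for the 5 genes, 5 ROR-element clock genes and 9 E-box clock genes; open symbols have an edgeR adjusted p of 0.05 or more. Nr1d1 lies near 0 at rest (-0.03) and to the right of all 9 E-box genes in both states, Nr1d2 lies among the E-box genes, and the Npas2 values depend on the prior count because of its 0 to 3 counts in resting vehicle muscle.

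Of 7 genes for the REV-ERB corepressor and for REV-ERB turnover (Ncor1, Hdac3, Tbl1xr1, Fbxw7, Huwe1, Siah2, Gsk3b), 0 were called by edgeR, DESeq2 or limma-voom in any contrast. In edgeR, 0 of these 7 had an unadjusted p under 0.05 for genotype at rest, beside 14.6% of all genes. For genotype after exercise 1 did, beside 19.4% of all genes. Of 10 AMPK, PGC-1 and autophagy genes tied to REV-ERBα in muscle, 9 were tested under the symbols used. For genotype at rest 0 of these were called by edgeR, DESeq2 or limma-voom. In edgeR 1 had an unadjusted p under 0.05, beside 14.6% of all genes. Their median log2 difference at rest was 0.0537, and that of the corepressor and turnover genes 0.0149, beside 0.00871 for all genes. Stk11, which encodes the AMPK kinase LKB1, was lower by 0.47 in exercised knockout-labelled than in exercised vehicle muscle (edgeR adjusted p = 0.00588). Its genotype difference at rest was 0.03. With exercise, Stk11 differed by 0.39 in vehicle muscle (edgeR adjusted p = 0.0901) and by -0.12 in knockout-labelled muscle. Its interaction was -0.51 (edgeR adjusted p = 0.717), so a different exercise response was not shown. Exercised knockout-labelled samples ran from 77.9 to 124.7 CPM for Stk11, with a median of 122.6 beside 121.7 in resting ones. Lamp1, a lysosomal membrane protein gene, was higher by 0.33 in exercised knockout-labelled than in exercised vehicle muscle (edgeR adjusted p = 0.00832). That call was lost when only the 2 exercised groups were fitted (edgeR adjusted p = 0.0508). Averaged over both states, the Lamp1 genotype difference was 0.26 (edgeR adjusted p = 0.00226), a call kept in all 29 alternatives. Of 6 HIF-induced genes, chosen because DEC1 is itself induced by hypoxia, 0 were called by edgeR, DESeq2 or limma-voom in any contrast, and 0 had an unadjusted p under 0.05. Their median genotype difference was 0.0203 at rest and 0.0622 after exercise.

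Among samples of the same group, Nr1d2, Rora and Bhlhe41 also moved with fibre-type markers. A slow-fibre score (mean log2 CPM of Myh7, Myl2, Tnnt1, Tnni1, Tnnc1, Atp2a2 and Myl3) averaged 6.26 in resting vehicle, 4.785 in exercised vehicle, 7.26 in resting and 4.30 in exercised knockout-labelled muscle. The 7 markers summed to 75.8 to 2422 CPM, 35.5 to 2344 CPM, 211 to 3539 CPM and 48.3 to 2377 CPM in these groups, and none was at 0. With group means removed over the 20 samples, 10 relations between members and fibre scores were tested by 100000 permutations within groups, and all share the libraries' depth. Bhlhe41 and Rora were lower in slow-rich samples. For Bhlhe41, Pearson's r with the slow score was -0.62 (permutation p = 0.006, adjusted 0.012) and Spearman's rho -0.71 (permutation p = 0.00122, adjusted 0.00407). Without the 2 samples farthest from the median slow score, r was -0.51. For Rora, r was -0.62 (permutation p = 0.00142, adjusted 0.0071), rho -0.64 (permutation p = 0.00164, adjusted 0.0041) and r without the 2 farthest samples -0.51.

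Nr1d2 and Bhlhe40 had the opposite sign. For Nr1d2, r was 0.60 (permutation p = 0.0105, adjusted 0.0175), rho 0.64 (permutation p = 0.00515, adjusted 0.00858) and r without the 2 farthest samples 0.59. For Bhlhe40, r was 0.49 (permutation p = 0.0355, adjusted 0.0507), rho 0.51 (permutation p = 0.0256, adjusted 0.0366) and r without the 2 farthest samples 0.53. Nr1d1 showed no relation to the slow score that could be detected (r = 0.01, permutation p = 0.985, adjusted 0.985; rho = -0.09, permutation p = 0.716). Among the 10 relations tested, the closest was that of Bhlhe41 with a fast-fibre score (Myh4, Actn3, Tnnt3, Pvalb, Atp2a1). Its r was 0.90 (permutation p = 1e-05, the smallest that 100000 permutations can give, adjusted 0.0001), its rho 0.91 (permutation p = 2e-05, adjusted 0.0002) and its r without the 2 farthest samples 0.86. Within the 4 groups that r ran from 0.84 to 0.97. With the slow score, r within groups ran from -0.05 to 0.88 for Nr1d2, from 0.08 to 0.77 for Bhlhe40, from -0.93 to -0.18 for Bhlhe41 and from -0.94 to -0.54 for Rora, so the Nr1d2 relation was not seen in every group.

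Markers of other cells moved with the members too, given here as r with group means removed over the 20 samples. Bhlhe41 had r = 0.86 with the muscle score (which shares Myh4 with the fast-fibre score), -0.76 with a fibroblast score (Pdgfra, Col1a1, Dcn, Lum) and -0.72 with an endothelium score (Pecam1, Cdh5, Kdr, Tek). Rora had r = 0.61 with the muscle score and -0.63 with the endothelium score. For Nr1d2 the signs were opposite, at -0.64 and 0.55. In resting vehicle, exercised vehicle, resting and exercised knockout-labelled muscle, the 4 endothelium markers summed to 105.6 to 144 CPM, 69.8 to 127 CPM, 104 to 141 CPM and 88.3 to 133 CPM. The 4 fibroblast markers summed to 215 to 356 CPM, 157 to 299.7 CPM, 254 to 375 CPM and 259 to 358.5 CPM in the same order, and no marker of either list was at 0. The part of these cells in the members' differences was not tested.

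With the slow score as a covariate the members kept their genotype calls, with Nr1d2 at -1.55 averaged over states, Bhlhe41 at -0.47 at rest (edgeR adjusted p = 0.0117) and Rora at -0.62 after exercise (edgeR adjusted p = 7.67e-04).

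**Figure D5:**
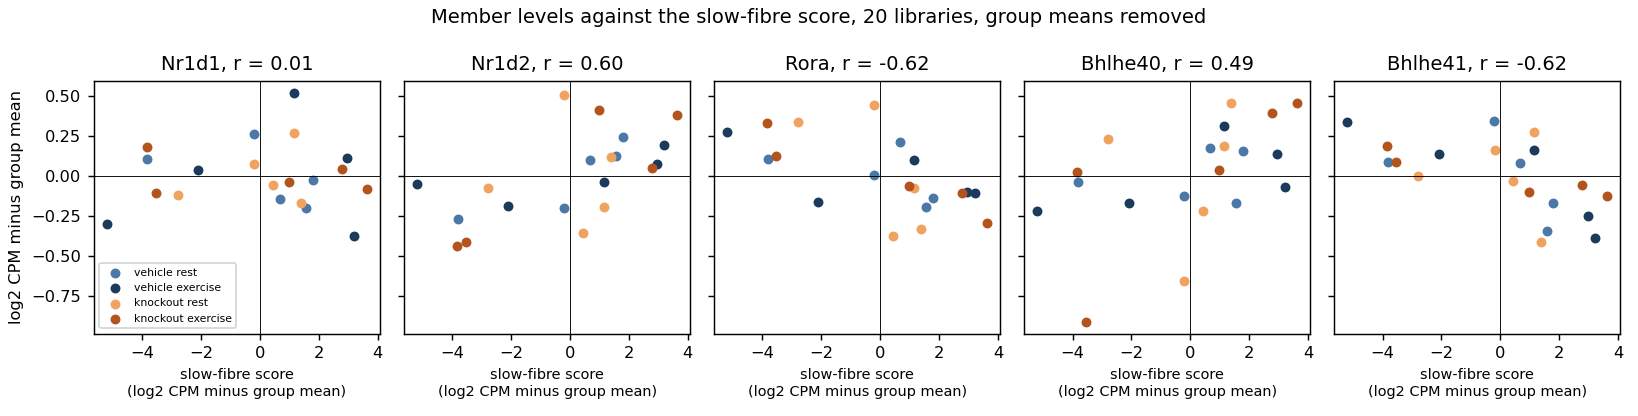
Log2 CPM of each gene against the slow-fibre score in 20 libraries, both as deviations from their group mean, coloured by group, with Pearson's r above each panel. Rora and Bhlhe41 decline to the right (r = -0.62 each), Nr1d2 and Bhlhe40 climb (r = 0.60 and 0.49), and Nr1d1 shows no slope (r = 0.01).

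The genes most like each member were named by Pearson's r of log2 CPM over the 20 samples among 11722 genes, as a description in which all points share library and groups. Nr1d2 was most like Dbp (r = 0.96, and 0.67 with group means removed), Vps13a (0.95 and 0.71) and Met (0.95 and 0.66). Bhlhe40 was most like its overlapping neighbour 0610040F04Rik (0.92 and 0.79), then Nfatc2 (0.85 and 0.44) and Itm2b (0.84 and 0.46). Bhlhe41 was most like its overlapping neighbour Gm43909 (0.92 and 0.85), then Golm1 (0.90 and 0.91) and Slc37a4 (0.90 and 0.88). For Nr1d2 and Bhlhe40 the likeness thus rested more on the group means than for Bhlhe41. Rora was most like Usp25 (0.89 and 0.93), Pgm2l1 (0.89 and 0.77) and Atp8a1 (0.89 and 0.86). Nr1d1 had no gene above 0.77, the value of Gm37759 and Tnfrsf23 (0.72 and 0.75 with group means removed), with Ap1b1 at 0.75 (0.69).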

How the data were processed

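Whole-number read counts per gene symbol in 20 samples were deposited by the authors as 1 table. Per the submitters' processing notes, the tools were Partek, STAR 2.7.8a and DESeq2 and the builds mm10 and GRCm39, with no role given; the counting program, annotation and strandedness are not given in the sources used here. Groups and replicate numbers were read from the sample labels. The members and gene lists were chosen with earlier results of these data known. The counts as deposited were fitted once for all 20 samples with 1 mean per group in edgeR 4.0.16 (R 4.3.3; TMM scaling, filterByExpr at a minimum count of 10, robust quasi-likelihood test), which left 13560 genes holding 99.83% of counts, and p-values were adjusted by Benjamini-Hochberg over these in each of 7 contrasts. The script was tested on simulated data. For log2 CPM, a prior count of 2 was added. With 5 samples per group, single values were tested by exact permutation.

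Genes were named by rule: the 5 members, Arntl, exon neighbours and Thra, the 3 genes most like each member (mean log2 CPM of at least 1), and called genes of 6 lists (another ROR, corepressor and turnover, ROR-element clock genes, E-box clock genes, AMPK/PGC-1/autophagy, HIF-induced); 2 further listed genes are not reported here. Exon lengths and overlaps came from GENCODE M21 (GRCm38). Alternatives were RLE, upper-quartile and library-size scaling, DESeq2 1.42.0, limma-voom (limma 3.58.1), no filter or a minimum of 30 counts, a replicate block, the slow-fibre score as covariate, fits of only the 2 groups compared, and leaving out each sample. No pair of libraries within a group was a duplicate: the closest (vehicle rest 1 and 2) had a chi-square of 3.99 per degree of freedom. Pairs between groups were not compared in this way.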

Additional observations from a re-analysis of the deposited data

How the results depend on the processing

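Nr1d2 kept its genotype call in all 29 alternatives when averaged over states. With the slow-fibre score as a covariate, the genes called numbered 845 for genotype at rest (523 without it), 1415 after exercise (870), 248 for exercise in vehicle (109), 6 for exercise in knockout-labelled muscle (0) and 254 for exercise averaged over genotypes (86). With DESeq2 the counts were 195 for exercise in vehicle, 167 for exercise averaged over genotypes and 3 for the interaction (0). With only the 2 groups fitted they were 567 for genotype after exercise and 61 for exercise in vehicle. Leaving out 1 sample gave 367 to 464 genes for genotype at rest, 642 to 841 after exercise, 52 to 135 for exercise in vehicle, 35 to 109 for exercise averaged over genotypes, and 0 to 1 for the interaction. For genotype after exercise, 362 genes were higher and 508 lower, against 449 and 396 with library size only. The cause was not tested.

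The small exercise differences of members changed sign: under the covariate, in knockout-labelled muscle, Nr1d2 was at 0.13 and Bhlhe41 at -0.13, and averaged over genotypes Rora was at -0.016. Leaving out 1 sample gave -0.10 to 0.042 for Nr1d1 by genotype at rest, -0.12 to 0.14 for Nr1d2, -0.12 to 0.091 for Rora and -0.060 to 0.10 for Bhlhe41 by exercise in knockout-labelled muscle, -0.24 to 0.016 for the Nr1d2 interaction, and, averaged over genotypes, -0.00444 to 0.13 for Nr1d2 and -0.034 to 0.11 for Bhlhe40.

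Replicate numbers did not pair the samples: of 30 same-number pairs between groups, 15 had a correlation of deviations over 0.1 (range -0.508 to 0.504), and 3 of 20 samples matched their own number best. With a replicate block, 518 genes were called for genotype at rest and 824 after exercise, and Bhlhe41 at rest was at -0.52 (edgeR adjusted p = 0.0587). The lowest count of a member in any sample was 166 (Nr1d2), whereas Rorb, at 0 to 4 counts, was too shallow to test.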
